A study of Homo sapiens with 12 samples.

Results

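Transcript levels were compared between HK-2 cells treated for 24 h with a high dose of the compound Nnm and cells given only vehicle for 24 h. The 6 arrays of this comparison, 3 of Nnm and 3 of control, were taken by their titles from the 12 arrays of the series, whose other 6 hold the same 2 groups at 48 h. HK-2 is a permanent human line derived from the proximal tubule, whose epithelial cells are the kidney cells that recover filtered sugars, amino acids and salts. All groups grew in 1 medium, which contained insulin, transferrin, selenite, EGF and hydrocortisone, and were treated close to confluence, and each array held biotin-labelled cRNA of 1 culture that the labels call a biological replicate. The series belongs to a project on compounds toxic to the kidney. Neither the amount of Nnm nor the vehicle is given in the sources used here, and the name is kept as the labels spell it. The p-values measure the spread between these cultures of a single line.

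Each value is a log2 expression level of a probe set, a group of short oligonucleotides that reads 1 transcript region. A gene was represented by its brightest probe set over the 12 arrays, which left 10966 genes after a filter on low values. A gene was called, and is said to have risen or fallen, where limma gave a Benjamini-Hochberg adjusted p under 0.05. With Nnm, 911 genes rose, 8.31% of those tested, and 900 fell, 8.21%. Of these, 425 rose and 418 fell at least 2-fold. The arrays of the 2 groups did not overlap for 4340 genes, 39.6% of those tested.

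Several processes that appear below are closely tied in proximal tubule cells, which make most of their ATP in mitochondria. Mitochondria build their own ribosomes from nuclear-encoded proteins, the MRPL and MRPS families, and import nearly all of their other proteins from the cytosol. TXNIP and ARRDC4 are arrestin-domain proteins that restrain glucose uptake, and their genes are textbook targets of the sugar-sensing factors MondoA and ChREBP, which bind paired E-box-like motifs called carbohydrate response elements. The SLC16 family includes transporters of monocarboxylates such as lactate. ZNF genes encode zinc finger proteins, many of them repressors of transcription, and many lie in clusters on chromosome 19.

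The labelled cell type was checked against its markers. Of 20 proximal tubule markers, DPP4, PAX8, CDH6 and CDH16 passed the filter, with control values of 11.20 to 11.75, 10.61 to 10.89, 12.56 to 12.92 and 8.18 to 9.44. The other 13 with a probe set of their own, among them the endocytic receptors LRP2 and CUBN and the water channel AQP1, lay under log2 4 on all 3 control arrays. All 6 epithelial markers were measured, with EPCAM at 12.94 to 13.08 and KRT18 at 12.94 to 13.21. Of 7 fibroblast markers, DCN (11.87 to 12.39), LUM and COL1A1 were also well above the filter in control cells, and 4 were under log2 4. The 3 immune and 4 distal nephron markers with a probe set stayed under log2 4 in control cells, as did 4 of 5 endothelial markers. Limma called 0 members of these marker lists, and at an unadjusted p under 0.05, 1 was higher and 2 were lower. The summed level of the fibroblast list ran from 12.39 to 12.86 on control arrays and from 11.86 to 12.78 with Nnm, that of the proximal tubule list from 13.35 to 13.69 and from 12.66 to 14.42, and that of the epithelial list from 15.64 to 15.79 and from 14.79 to 15.41. In such bulk samples, fewer cells of a type and less RNA per cell cannot be told apart.

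The 3 Nnm cultures did not respond alike. The first principal component of all 12 arrays held 57.4% of the variance and placed the 24 h controls between 46.1 and 48.6, Nnm replicates 1 and 3 at -87.8 and -80.9, and Nnm replicate 2 at 16.1. Against the control of the same number, 2617 genes differed by over 1 on the log2 scale in replicate 1, 2543 in replicate 3 and 379 in replicate 2. Pairs of control arrays differed by that much at 145 to 241 genes. With the arrays numbered 2 of Nnm left out at both times, 2791 genes rose and 2686 fell, and in a model with a block for replicate number (hereafter the block) 1706 rose and 1745 fell. These 2 fits also used the arrays of 48 h to estimate the spread. The 6 arrays of 24 h alone gave 55 called genes, and the block within those 6 arrays gave 0 by limma, with a lowest adjusted p of 0.111 and 3756 genes at an unadjusted p under 0.05. Every call below rests on the spread estimated over both times. Leaving out single 24 h arrays gave 43, 4523 and 91 called genes without Nnm replicates 1, 2 and 3, and 218, 1045 and 36 without control replicates 1, 2 and 3, against 1811 with all arrays. Counts of called members in the gene groups below moved in the same way, from 349 genes of all pathway lists together to 10, 780 and 19 without Nnm replicates 1, 2 and 3 and to 45, 212 and 9 without the controls.

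Promoter sequences are shown for 4 genes that rose, the sugar-responsive TXNIP and ARRDC4 and the transporter genes SLC16A9 and SLC16A14. Their windows differ in length, with 180, 250, 120 and 120 bases in this order. The sequences are RefSeq sequence of GRCh38.p14, read 5′ to 3′ on the strand of the gene, and end at the base before the gene start. TXNIP lies at chr1:145996580-145996759 (minus strand), ARRDC4 at chr15:97960453-97960702 (plus strand), SLC16A9 at chr10:59710080-59710199 (minus strand) and SLC16A14 at chr2:230068925-230069044 (minus strand). Capitals mark matches, on either strand, to the motifs searched that lie in these windows: the E-box CACGTG, a carbohydrate response element (CACGNG, 5 bases, CACGNG), the AP-1 motif TGANTCA and the CCAAT box, ATTGG on 1 strand and CCAAT on the other.
TXNIP: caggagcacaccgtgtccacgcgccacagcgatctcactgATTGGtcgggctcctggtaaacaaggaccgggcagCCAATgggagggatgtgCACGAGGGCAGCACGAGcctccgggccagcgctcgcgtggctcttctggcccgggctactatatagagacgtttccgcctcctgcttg
ARRDC4: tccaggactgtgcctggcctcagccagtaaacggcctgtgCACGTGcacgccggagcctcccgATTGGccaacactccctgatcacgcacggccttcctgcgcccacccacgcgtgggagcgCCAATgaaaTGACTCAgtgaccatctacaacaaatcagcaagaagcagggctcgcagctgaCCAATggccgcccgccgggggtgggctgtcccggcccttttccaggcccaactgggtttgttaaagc
SLC16A9: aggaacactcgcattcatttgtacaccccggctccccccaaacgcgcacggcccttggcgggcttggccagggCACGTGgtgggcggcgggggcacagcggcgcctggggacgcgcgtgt
SLC16A14: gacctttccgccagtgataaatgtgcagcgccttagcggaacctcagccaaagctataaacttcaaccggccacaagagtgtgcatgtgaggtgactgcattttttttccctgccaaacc
The TXNIP window held the carbohydrate response element and 2 CCAAT boxes, the ARRDC4 window an E-box, an AP-1 motif and CCAAT boxes, and the SLC16A9 window an E-box, while none of the motifs searched was in the SLC16A14 window. Over the 250 bases before the start, the carbohydrate response element was present in 12 of 9077 promoters of tested genes (0.132%), of which TXNIP was the only one that rose and none fell. The E-box was in 9.30% of all promoters, 9.09% of those of genes that rose and 11.8% of those of genes that fell. For AP-1 the shares were 3.57%, 3.29% and 2.63%, and for the CCAAT box 35.7%, 33.2% and 38.8%. The antioxidant response element core (TGACNNNGC) was in 12.2% of all promoters, in 91 of 759 of genes that rose and in 104 of 761 of genes that fell, the cAMP response element (TGACGTCA) in 2.99%, 3.16% and 4.20% of these, and the C/EBP-ATF element (TGATGCAA) in 0.364%, 0.264% and 0.394%. A match describes these letters and is not evidence of a bound site.

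Some genes moved strongly in all 3 replicates. They were ranked by the smallest of their 3 same-numbered differences, so that replicate 2 counted as much as the others, and the first 12 in each direction are described. SLC16A14, an orphan member of the monocarboxylate transporter family, read 3.13, 2.43 and 2.45 on the control arrays and 10.62, 7.53 and 10.75 with Nnm, in replicate order as for all genes below. Every Nnm array was far above every control array, replicate 2 least, and the rise was at least 49.6-fold (adjusted p = 0.00453). Where a group averaged under log2 4, the filter level, as here, the fold is that of the brighter group's mean against this level and is given as a lower bound. SLC16A9, a carnitine and creatine transporter of the same family, went from 2.56, 1.96 and 2.27 to 8.50, 4.81 and 8.35, at least 9.30-fold (adjusted p = 0.0164). DHRS2, a short-chain dehydrogenase, went from 2.31, 2.11 and 2.84 to 9.84, 4.54 and 8.91, at least 13.6-fold (adjusted p = 0.0243). In both, replicate 2 came up by less than the others but stayed clear of the controls.

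C5AR1, the receptor of complement fragment C5a, read 4.20, 3.74 and 3.53 in control cells and 8.94, 6.68 and 8.88 with Nnm, at least 18.0-fold (adjusted p = 0.011). PCLO, a scaffold protein of presynaptic active zones, rose by 4.22 ± 0.73 (SE) on the log2 scale, from 5.04, 5.08 and 4.56 to a mean of 9.12 ± 0.98 (SD, n = 3), with 9.85 and 9.49 in replicates 1 and 3 and a lower value in replicate 2. KDM7A, a demethylase of histone H3 lysines, rose by 3.55 ± 0.69, from 4.12, 4.23 and 3.66 to 8.52, 6.30 and 7.84. In these 3 genes replicate 2 again showed the smallest difference. In HGD, ZSCAN31 and TENM3 the differences of the 3 replicates were nearly level. HGD, the homogentisate oxidase of tyrosine breakdown, went from 8.69, 8.84 and 8.48 to 10.97, 11.08 and 10.80 (2.28 ± 0.31, adjusted p = 0.00858). ZSCAN31, a zinc finger gene, went from 8.66, 9.18 and 8.78 to 10.78, 11.13 and 10.65 (1.98 ± 0.25, adjusted p = 0.00809), and TENM3, a teneurin adhesion receptor, from 4.78, 4.57 and 4.12 to 7.33, 6.98 and 6.73 (2.52 ± 0.44). TXNIP went from 9.46, 9.96 and 9.23 to 12.43, 12.05 and 12.48 (2.77 ± 0.64, adjusted p = 0.0252). Its differences were 2.97, 2.09 and 3.25, smallest in replicate 2. SHISA2, which retains FGF and WNT receptors inside the cell, rose by 2.52, and THEMIS2, a signalling protein of immune cells, by 2.61.

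Of the consistent falls, the largest was in ZBED10P, a pseudogene of a zinc finger family, from 8.97, 9.42 and 9.47 to 5.26, 6.92 and 6.16 (-3.17 ± 0.55, adjusted p = 0.0122). INHBA, the subunit of activin A, went from 6.79, 7.47 and 7.58 to 4.77, 5.34 and 4.64 (-2.37 ± 0.41, adjusted p = 0.0121). KRT20, an intestinal-type keratin, fell from 6.88, 8.10 and 6.83 to 3.12, 6.27 and 4.22 (-2.73 ± 0.72, adjusted p = 0.0343), least in replicate 2. LPCAT1, which makes phosphatidylcholine for membranes and lipid droplets, fell from a mean of 11.14 ± 0.28 (SD, n = 3) to 9.05, 9.30 and 9.36 (-1.90 ± 0.26, adjusted p = 0.00858). THBS1, the matrix protein thrombospondin, fell from 8.60, 8.11 and 8.46 to 7.08, 6.38 and 6.59 (-1.70 ± 0.26, adjusted p = 0.0101). For INHBA, LPCAT1 and THBS1 the drop in replicate 2 was of the size seen in the others. The calcium-dependent phospholipid-binding annexin ANXA3 fell by 1.87, C1orf116 by 2.64, the pseudouridine synthase PUSL1 by 1.86, VPS53, a subunit of the GARP tethering complex at the Golgi, by 2.01, ARHGDIB by 1.58, and the noncoding LINC00973 by 2.29 and ZFHX4-AS1 at least 7.30-fold. ZFHX4-AS1 is an antisense transcript, and which strand its probe set reads was not tested. These 24 genes kept their direction in all 6 fits that left out 1 array of 24 h. This had to be so, since their Nnm and control arrays did not overlap. SLC16A14, HGD, ZSCAN31, C1orf116 and LPCAT1 stayed called in each of the 6, while the others lost the call in 1 to 5 of them, with adjusted p-values up to 0.146 (ARHGDIB).

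**Figure D1:**
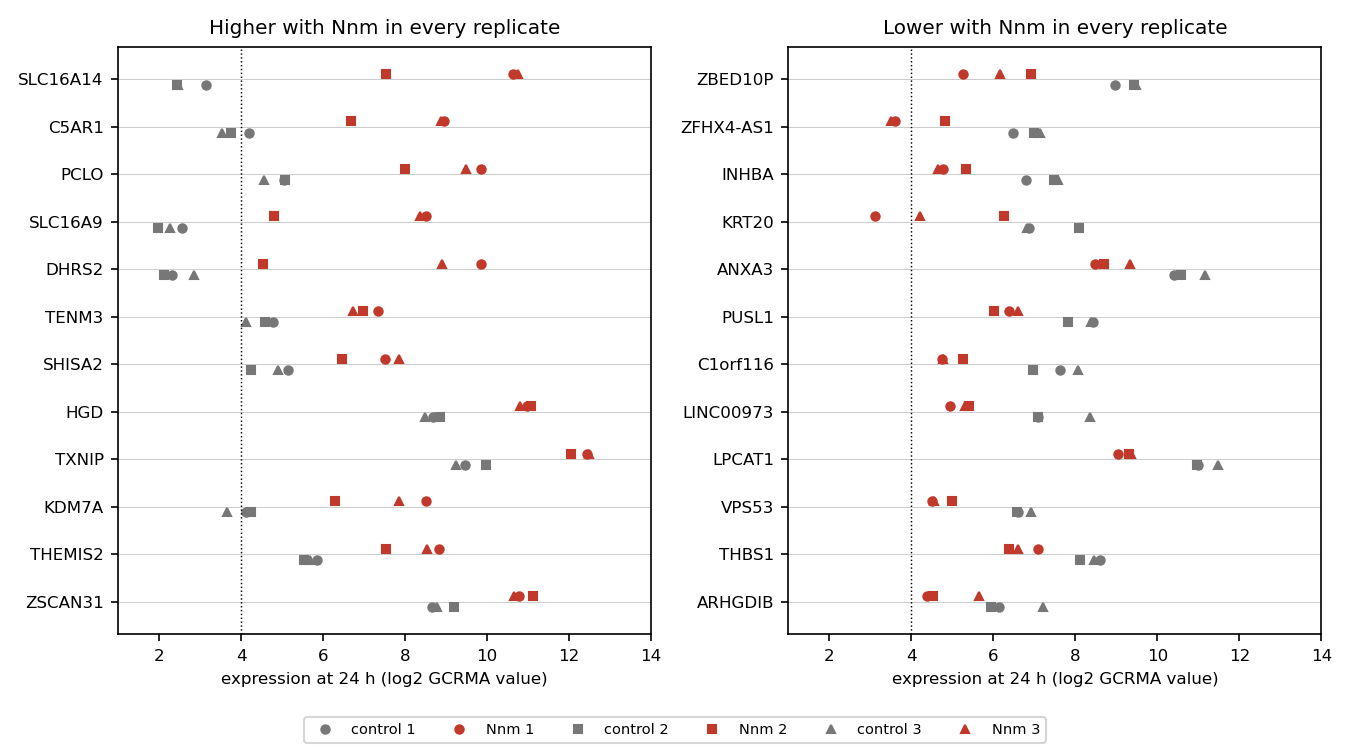
Log2 expression of the 24 genes that changed in every replicate, on each control (grey) and Nnm (red) array of 24 h, with circles, squares and triangles for replicates 1, 2 and 3 and a dotted line at the filter level of log2 4. For each gene the red and grey symbols stand apart, and for SLC16A14, SLC16A9, DHRS2 and KRT20 the red square (Nnm replicate 2) lies nearest to the controls.

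Other genes moved only in replicates 1 and 3. Among genes with a brighter level of at least log2 6, 174 rose by over 2 on the log2 scale in both of these cultures, by medians of 2.68 and 2.70, while their median in replicate 2 was 0.59. Of the 174, 155 had the same sign in replicate 2, 46 differed there by over 1 and 70 by under 0.5. Of 155 genes that were lower by over 2 in both, with medians of -2.54 and -2.56 against -0.48 in replicate 2, 130 had the same sign there, 25 differed by over 1 and 75 by under 0.5. The median ratio of the replicate 2 difference to that of the others was 0.22 and 0.19. These sets were chosen by their differences, so the counts are a description.

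RNF150, a ubiquitin ligase gene, is the plainest case, with control values of 2.57, 2.59 and 2.61 and Nnm values of 10.19, 2.60 and 10.61. HEY1, a NOTCH target, read 3.28, 2.80 and 2.55 and 7.92, 3.06 and 7.61. NGFR, the p75 neurotrophin receptor, read 2.37, 2.38 and 2.40 and 6.77, 2.39 and 6.90, and ACVR1C, an activin receptor, 2.07, 2.08 and 2.09 and 6.83, 2.07 and 6.71. In each of these the control level and replicate 2 were near the bottom of the scale and both other Nnm arrays were high. IFITM10 and CLIP4 had the same form. In the other direction, SGK1, the kinase that raises sodium uptake and responds to glucocorticoids, read 13.74, 13.68 and 13.60 in control cells and 10.48, 13.76 and 10.39 with Nnm. CAVIN2, a coat protein of caveolae, read 7.99, 8.05 and 8.06 and 4.15, 7.60 and 4.38, and CYS1, the cilium protein cystin, 11.12, 10.56 and 10.28 and 7.36, 11.04 and 7.06. Nnm replicate 2 lay within 0.5 of its control in all 3, by 0.08 for SGK1, -0.46 for CAVIN2, where it was below every control array, and 0.48 for CYS1. ZBED2, a transcription factor gene, read 5.72, 6.37 and 7.68 and 1.88, 5.94 and 2.32, and the transporter gene ABCC10 6.89, 7.13 and 7.09 and 3.25, 6.98 and 3.97. Of these 12 genes only HSD17B1, which makes estradiol, passed the test with all arrays (control 6.56, 5.71 and 6.51, Nnm 2.81, 5.76 and 2.81, at least 4.80-fold, adjusted p = 0.0381), and without the Nnm arrays numbered 2 each of the 12 did, which follows from how they were chosen.

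**Figure D2:**
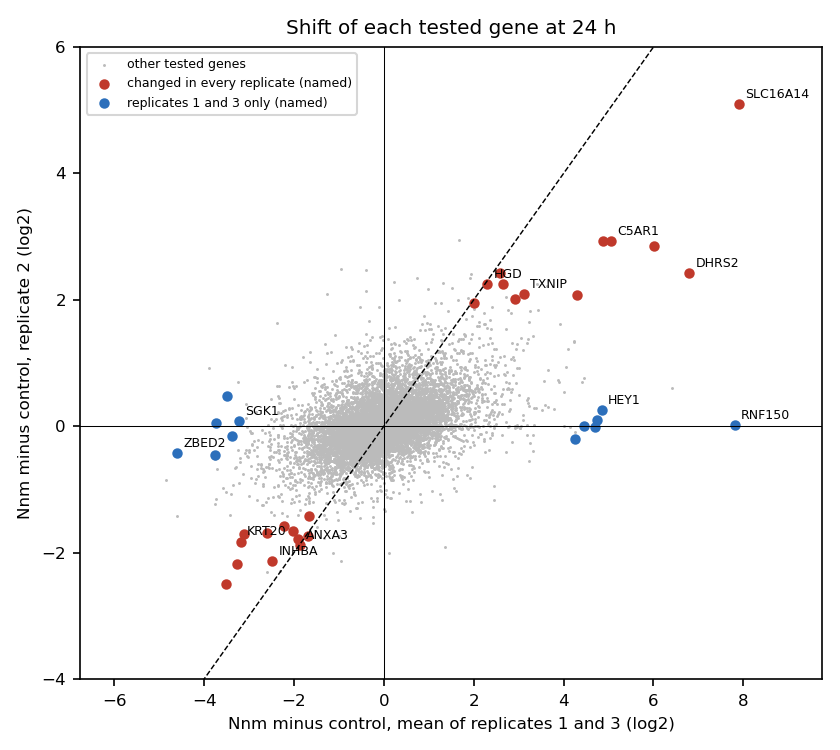
Each point is 1 of 10966 tested genes, placed by its Nnm minus control difference averaged over replicates 1 and 3 (horizontal, log2) and in replicate 2 (vertical, log2), with the dashed line at equal differences. Most points spread more widely along the horizontal axis; the red genes, ranked by their smallest difference, lie toward the line, and the blue genes, chosen for under 0.5 in replicate 2, lie along 0.

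Gene groups were then described with 76 pathway lists that hold 1848 tested genes. For each list, the counts called higher and lower stand against 8.31% and 8.21% of all tested genes, and its median log2 difference against -0.00 over all tested genes. No list was tested as a set. A gene under log2 4 on all control arrays passed the filter only through Nnm arrays and could then only be called higher. Among such genes are SLC16A14, SLC16A9, DHRS2 and NR4A2. Of the 349 called members, replicate 2 showed the smallest of the 3 same-numbered differences for 319, a difference under 0.25 in size for 58 and one of the opposite sign for 1, UVRAG. In lists below with a count of 0 rises by limma, 0 to 4 members were higher at an unadjusted p under 0.05 (4 among SR proteins and hnRNPs), and in those with 0 falls 0 to 6 were lower (6 among genes of iron-sulfur cluster and heme synthesis), against 2079 higher and 2133 lower of all genes.

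Genes of mitochondrial protein synthesis were lower. Of 47 large subunit proteins of the mitochondrial ribosome, 16 fell (34.0%) and 0 rose, with medians of -0.56, -0.23 and -0.62 in replicates 1, 2 and 3. With the block 28 fell and 1 rose, and without the Nnm arrays numbered 2, 35 fell. Without Nnm replicate 1, Nnm replicate 3 or control replicate 3 the falls numbered 0, without control replicate 1 there was 1, and without control replicate 2 there were 12. MRPL12, which also binds the mitochondrial RNA polymerase, went from 10.09, 9.47 and 10.22 to 7.72, 8.60 and 8.09 (-1.79 ± 0.31, adjusted p = 0.0121), and MRPL28 from 9.18, 8.58 and 9.26 to 7.46, 8.13 and 7.62. In both, the Nnm arrays did not overlap the controls. Of 27 small subunit proteins, 8 fell and 0 rose (16 and 0 with the block), among them MRPS28 by 1.02 and MRPS7 by 0.97. The lead probe set of MRPS25 fell by 0.88, but the median over its probe sets was 0.05 higher with Nnm. Of 26 genes of mitochondrial DNA replication and expression, 8 fell, among them TFB1M, a methylase of the mitochondrial rRNA, by 1.35, the helicase TWNK by 1.11 and the elongation factor GFM1 by 1.14. The release factor gene MTRF1 was the 1 member that rose, from 5.49, 5.76 and 5.78 to 7.54, 6.91 and 7.27 (1.56 ± 0.16, adjusted p = 0.0044). Among 15 mitochondrial aminoacyl-tRNA synthetases, SARS2 fell by 1.83 and MARS2 at least 2.40-fold (8 fell with the block), and among 17 cytosolic ones HARS1, VARS1 and FARSA fell, by 1.07, 1.15 and 0.99 (6 with the block).

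Import and energy genes of the mitochondrion were lower too. Of 27 import genes 10 fell and 0 rose, with medians of -0.44, -0.36 and -0.46, so that replicate 2 differed little from the others. GRPEL1, the exchange factor of the matrix chaperone, fell from 10.06, 10.15 and 10.54 to 9.07, 8.98 and 9.30 (-1.13 ± 0.19, adjusted p = 0.0114), TOMM40L by 1.47 and TIMM22, the carrier translocase, by 1.09. Of 14 tricarboxylic acid cycle genes 5 fell and 0 rose (8 with the block): SDHA, the flavoprotein of succinate dehydrogenase, by 1.16, OGDH by 1.10, DLST by 0.97, IDH3B by 0.65 and IDH3G by 0.46. Of 17 genes of mitochondrial proteases and dynamics 4 fell (9 with the block), namely LONP1, FIS1, PHB2 and DNM1L, by 0.46 to 0.89. The 36 mitochondrial carriers were not lower as a group: 3 rose (8.33%) and 4 fell (11.1%), shares near those of all genes. Their median difference was 0.00, and with the block 7 rose and 8 fell. UCP2, which lowers coupling of the inner membrane, fell from 13.02, 12.46 and 12.75 to 10.18, 11.51 and 10.68 (-1.95 ± 0.38), SLC25A10 by 1.46, the oxoglutarate carrier SLC25A11 by 1.35 and SLC25A4 by 0.43, while SLC25A51, the NAD carrier, rose by 1.29, SLC25A36 by 1.09 and SLC25A12 by 0.78.

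Genes of ribosome and RNA production were called lower more often than higher. Of 21 small nucleolar ribonucleoprotein and RNA modification genes 11 fell (52.4%) and 0 rose. METTL1 and WDR4, which together methylate tRNA, went from 6.26, 6.35 and 6.58 to 4.60, 5.79 and 4.51 and from 7.53, 7.72 and 8.12 to 5.75, 6.86 and 5.93 (-1.43 ± 0.31 and -1.61 ± 0.29). EMG1, an rRNA modifying enzyme, fell by 1.32, and the core proteins FBL, SNU13, NHP2 and NOP10 by 0.56, 0.82, 0.73 and 0.43. Of 34 small subunit processing factors 12 fell and 0 rose, with medians of -0.25, -0.42 and -0.85, where replicate 1 showed the smallest median. RRP7A went from 7.48, 6.63 and 7.67 to 5.20, 5.55 and 5.36 (-1.89 ± 0.29, adjusted p = 0.0101) and TSR1 from 9.97, 10.01 and 10.57 to 8.30, 9.27 and 8.43. Of 31 RNA polymerase I and III subunits 4 were called lower and 1 higher, around a median difference of -0.12. The block gave 7 falls and 3 rises, and leaving out the Nnm arrays numbered 2 gave 8 and 10. POLR1A fell by 1.03, POLR1G by 0.77 (-0.01 in replicate 2), POLR3K by 0.65 and POLR1C by 0.63, and POLR1D, shared by both enzymes, rose from 10.42, 10.12 and 10.43 to 12.19, 11.33 and 11.82 (1.45 ± 0.32). Of 31 translation initiation factors 5 fell and 1 rose (8 and 1 with the block), with EIF2B3 lower by 1.25 and EIF3B by 0.92. Of 31 RNA helicases of the DDX family 8 fell (25.8%) and 1 rose, DDX56 by 1.42 and DDX28 by 0.91, and DDX60, an interferon-induced helicase, rose by 0.89, named here for their sizes.

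Splicing genes were also lower. Of 37 core spliceosome genes 9 fell and 0 rose (16 and 0 with the block), with medians of -0.37, -0.19 and -0.39. PRPF31 went from 9.96, 9.68 and 10.11 to 8.11, 9.13 and 8.10 (-1.47 ± 0.35), EFTUD2 fell by 1.11, and the U1 protein SNRNP70 by 1.07. Of 32 SR proteins and hnRNPs 4 fell and 0 rose, TRA2A by 1.20, HNRNPD by 0.97, HNRNPR by 0.64 (-0.04 in replicate 2) and HNRNPUL1 by 0.61 (8 fell and 4 rose with the block). RNA decay genes went both ways. Of 31, the exosome genes EXOSC2, EXOSC4, EXOSC7 and EXOSC9 fell, by 0.69 to 1.35, and the decapping gene DCP2 and the deadenylase genes CNOT4, CNOT6L and CNOT8 rose, by 0.60 to 0.84. Of 49 nucleoporin and importin genes 5 rose and 4 fell, shares of 10.2% and 8.16% that lie close to those of all genes.

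Enzymes that make nucleotides were lower. Of 13 purine synthesis genes 7 fell (53.8%) and 0 rose, with medians of -0.54, -0.35 and -0.56. PFAS went from 9.52, 9.61 and 9.63 to 7.02, 9.02 and 7.04 (-1.89 ± 0.53, adjusted p = 0.0399) and GART from 10.21, 10.17 and 10.24 to 8.75, 9.81 and 8.69, where replicate 2 moved least in both. PAICS fell by 0.84, ATIC by 0.81, ADSL by 0.68, PRPS1 by 0.52 and IMPDH1 by 0.47. Of 17 pyrimidine and deoxynucleotide genes 5 fell and 0 rose, with medians of -0.92, -0.11 and -0.58, so that replicate 2 moved little. The falls were DHODH at least 1.80-fold, CTPS1 by 1.18, UMPS by 1.06, the thymidylate synthase TYMS by 0.80 (-0.15 in replicate 2) and CAD by 0.76. Of 13 folate and one-carbon genes 1 rose and 3 fell. SLC19A1, the reduced folate carrier, went from 7.29, 7.37 and 7.66 to 4.93, 6.58 and 5.54 (-1.76 ± 0.37), MTHFD2L fell by 1.37 and FPGS by 1.14, and MAT2B rose by 0.53. Of 15 polyamine and proline genes 1 rose and 2 fell. ARG2, the mitochondrial arginase, rose from 9.97, 10.20 and 9.50 to 12.66, 11.17 and 12.19, and PRODH, the first enzyme of proline breakdown, fell from 11.50, 10.58 and 10.59 to 8.98, 10.05 and 8.41, as did the spermidine synthase SRM by 0.92.

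Genes of protein turnover were called in both directions. Of 28 proteasome genes 4 fell and 0 rose, PSMA3, PSMC3, PSMD11 and PSMD6, by 0.40 to 0.73 (9 fell with the block), and of 12 chaperonin and prefoldin genes CCT7 and CCT2 fell, by 0.50 and 0.44. Of 37 autophagy genes 10 rose (27.0%) and 2 fell, with medians of 0.78, 0.09 and 0.70, and this difference lay almost wholly in replicates 1 and 3. With the block 16 rose and 2 fell. RB1CC1, the scaffold of the ULK initiation complex, went from 10.85, 11.09 and 10.89 to 12.67, 11.38 and 12.78 (1.33 ± 0.31, adjusted p = 0.0255). GABARAPL1, which is coupled to the growing membrane, went from 7.96, 7.95 and 7.89 to 9.77, 8.38 and 9.61. NBR1, a cargo receptor, went from 9.75, 9.70 and 9.65 to 11.16, 10.58 and 11.14 (1.26 ± 0.18, adjusted p = 0.00912) and was higher in replicate 2 as well. UVRAG rose by 1.15 on average (1.52, -0.04 and 1.96 in replicates 1, 2 and 3), ULK2 by 0.99, ATG14 by 0.85, ATG12 by 0.79 and ATG5 by 0.75, while ATG7, the activating enzyme of the conjugation system, fell by 1.03 and the lipid transfer gene ATG2A by 0.79 (-0.10 in replicate 2). Of 35 lysosomal genes CTSK, MANBA and SCARB2 rose, by 1.35 (0.12 in replicate 2), 1.07 and 0.86, and 0 fell (11 and 2 with the block), a share of rises, 8.57%, close to that of all genes. Of 16 vacuolar ATPase genes ATP6V1D fell by 0.49 and 0 rose. Without Nnm replicate 1 or control replicate 3 no autophagy gene was called, and without Nnm replicate 2 20 rose and 5 fell.

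Few folding genes were called. Of 28 genes of endoplasmic reticulum folding and the unfolded protein response, ATF6, a sensor of that response, rose by 0.73, SEL1L by 1.03 and SDF2L1 fell by 1.06. Of 19 cytosolic heat shock genes DNAJB6 was the 1 that rose, from 8.74, 8.70 and 8.68 to 11.71, 9.38 and 11.59 (2.19 ± 0.59), mostly in replicates 1 and 3 (4 rose with the block). Of 34 cullin ligase and ubiquitin conjugation genes BTRC rose by 1.16, CUL4B by 1.00 and UBE2H by 0.57, and STUB1 fell by 1.07 and UBE2N by 0.79. Of 38 genes of vesicle coats and the Golgi 6 fell and 0 rose (9 and 1 with the block), GOSR2 by 0.88 and ARF3 by 0.78. Of 31 genes of endocytosis and the megalin pathway RAB4A rose by 0.44, and RAB11FIP1 and the caveola coat gene CAVIN1 fell, by 0.94 and 1.38.

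**Figure D3:**
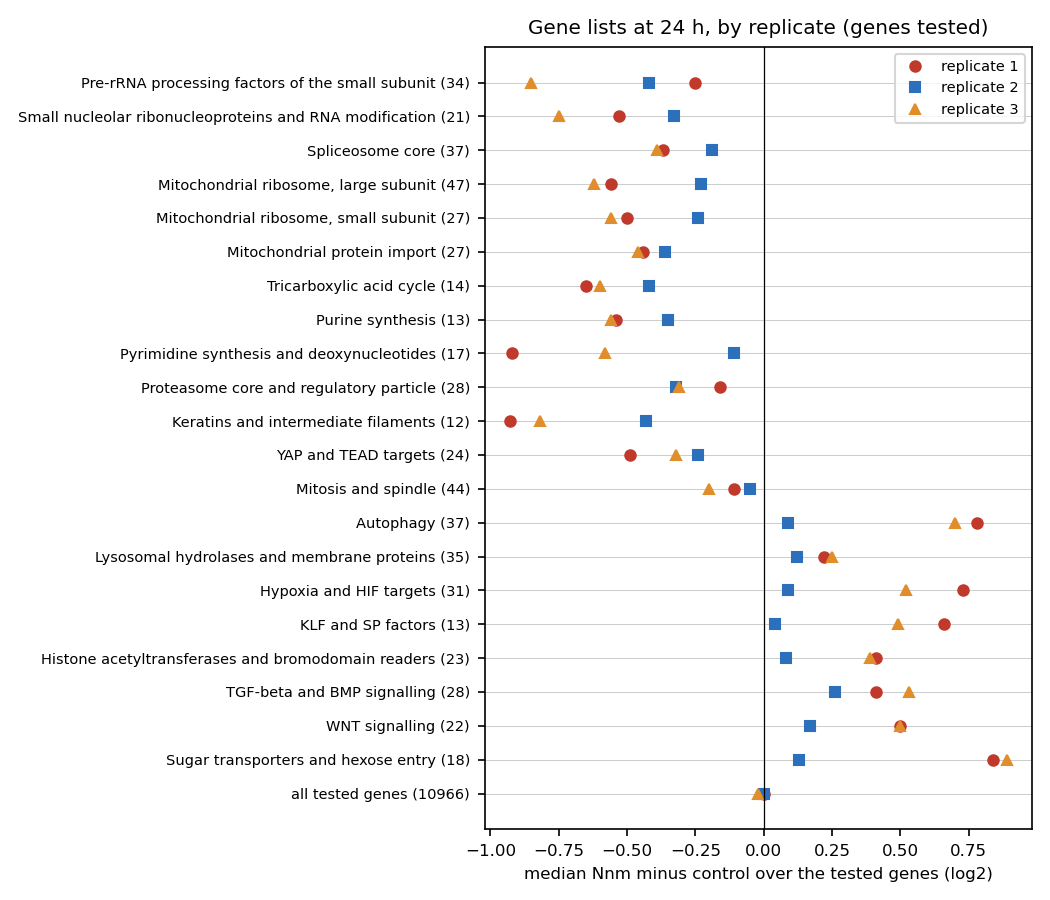
Median Nnm minus control difference (log2) over the tested genes of 21 pathway lists and of all tested genes, in replicate 1 (circles), 2 (squares) and 3 (triangles), with the number of tested genes in parentheses. Medians of the ribosome, mitochondrial, nucleotide and intermediate filament lists lie left of 0 in all 3 replicates, those of autophagy (0.78, 0.09 and 0.70) and sugar genes (0.84, 0.13 and 0.89) lie right of 0, and replicate 2 is usually nearest to 0.

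Growth factor genes were called in both directions. Of 15 EGF-family ligands, receptors and sheddases 3 rose and 2 fell. NRG1, a ligand of ERBB3 and ERBB4, fell from 8.91, 9.04 and 9.68 to 4.21, 7.62 and 5.19 (-3.53 ± 1.06, adjusted p = 0.0495), and the EGF receptor ligand TGFA from 9.93, 9.68 and 9.80 to 8.72, 9.07 and 9.01. ERBB3 rose from 4.76, 4.68 and 4.67 to 7.45, 5.50 and 7.07 (1.97 ± 0.56), LRIG1, which restrains ERBB receptors, by 1.63 and the shedding protease ADAM17 by 0.73. Of 28 insulin and PI3K genes INSR, IGF1R and RICTOR rose, by 1.07, 0.94 and 0.93, and the kinases AKT2 and AKT1 fell, by 1.12 and 0.55 (-0.09 in replicate 2 for AKT1), shares of 10.7% and 7.14% that lie near those of all genes. DUSP1, which dephosphorylates MAP kinases, rose from 10.82, 11.21 and 10.86 to 11.97, 12.05 and 11.65 (0.93 ± 0.22, adjusted p = 0.0274), the 1 of 19 phosphatase and Sprouty genes called. Of 18 immediate early genes NR4A2 rose at least 2.75-fold, from 2.83, 3.00 and 2.96 to 6.65, 3.31 and 6.43, and JUND fell by 0.70, and with the block 5 rose and 3 fell.

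Of 28 TGF-beta and BMP signalling genes 5 rose (17.9%) and 1 fell. ID3, an inhibitor of basic helix-loop-helix factors, rose from 5.86, 6.08 and 5.57 to 7.97, 7.66 and 7.69 (1.94 ± 0.21, adjusted p = 0.00453), and replicate 2 rose by less than the others but clear of all controls. ID2 rose by 1.29, ID1 by 0.92, SMAD4 by 0.84, and the coreceptor TGFBR3 from 5.75, 5.95 and 6.07 to 8.72, 6.54 and 8.66, while INHBA was the 1 that fell (9 rose and 2 fell with the block). Of 24 targets and partners of YAP 6 fell and 0 rose: CCN1, a secreted matrix protein, from 12.29, 11.59 and 12.47 to 9.51, 10.88 and 9.91 (-2.02 ± 0.41), FJX1 from 8.57, 7.96 and 8.86 to 6.25, 6.85 and 6.23 (-2.02 ± 0.28), TEAD2 by 1.43, AMOTL2 by 1.14, TGFB2 by 1.13 and WWTR1, the gene of TAZ, by 1.03. Of 22 WNT genes TCF7L2 rose by 0.46 and no other was called, and with the block 9 rose. Of 16 NOTCH genes HES1 rose from 8.39, 7.53 and 7.43 to 10.35, 8.83 and 10.11 and RBPJ by 0.53.

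Several genes of the cytoskeleton were lower, while few genes of junctions, integrins and matrix were called, in shares below those of all genes. The actin cross-linkers ACTN4 and ACTN1 went from 11.45, 10.79 and 11.35 to 9.99, 9.87 and 9.98 and from 12.26, 11.83 and 12.32 to 10.98, 11.09 and 10.82 (-1.25 ± 0.21 and -1.18 ± 0.19), lower in every replicate and least so in replicate 2. The myosin light chain MYL9 fell by 1.50, TPM1 by 0.78 and MYL12A by 0.44, and the kinases ROCK1 and ROCK2 rose, by 0.71 and 0.51. Of 12 intermediate filament genes KRT20, the lamins LMNB2 and LMNA, and NES fell, the last 3 by 0.90 to 0.97. TUBA1A fell from 13.55, 13.57 and 13.97 to 11.81, 12.69 and 11.85, TUBB6 by 1.02, and TUBD1 rose by 0.57, of 25 tubulin and tubulin folding genes (10 fell with the block). Of 32 junction genes CGN, a tight junction protein, was the 1 called, from 6.96, 6.80 and 7.00 to 4.47, 5.70 and 4.77 (6 fell and 2 rose with the block). ITGA2, a collagen receptor subunit, rose from 5.01, 5.23 and 5.11 to 7.49, 6.34 and 7.96, the 1 of 18 integrins called. Of 38 matrix genes LAMC1 rose by 0.44 and THBS1 fell, shares of 2.63% each.

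Of cytokine genes and receptors, 6 of 25 rose and CXCL8 fell. CXCL8, the neutrophil chemokine, went from 12.50, 12.73 and 12.80 to 9.62, 11.83 and 9.25 (-2.44 ± 0.58, adjusted p = 0.0271). The interleukin 1 receptor IL1R1 went from 5.91, 6.23 and 5.72 to 9.00, 7.60 and 9.04 (2.59 ± 0.37, adjusted p = 0.00912), and each Nnm array was above each control. LIFR rose by 1.67, IL15 by 1.00, CXCL16 by 0.68, IL13RA1 by 0.61 and IL6ST, the shared receptor chain of that cytokine family, by 0.57. Of 28 TNF and NF-kB genes REL rose by 1.17 and IKBKG fell by 0.64. Of 18 complement and coagulation genes 2 rose and 2 fell. Beside C5AR1, the complement regulator CD46 rose by 0.53, and the thrombin receptor F2R and the protease inhibitor TFPI2 fell, by 1.25 and 1.00.

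Chromatin genes were called in both directions. Of 23 acetyltransferase and bromodomain genes 5 rose (21.7%) and BRD9 fell, by 0.77 (9 rose with the block). KAT2B went from 6.10, 6.55 and 5.80 to 8.62, 7.08 and 8.21 (1.82 ± 0.37), BRD2 from 10.77, 10.81 and 10.72 to 12.46, 11.27 and 12.57, and KAT6B, BAZ2B and CREBBP rose by 1.01, 0.92 and 0.81. Of 31 lysine methyltransferases KMT2C, EZH1, SETD2 and SETD3 rose, by 0.39 to 1.06, and 0 fell, and of 21 demethylases KDM7A, KDM3A and KDM6A rose (KDM6A by 0.10 in replicate 2) and RIOX1 fell by 0.49. Of 17 deacetylases and sirtuins 2 rose and 1 fell. SIRT1, an NAD-dependent deacetylase, rose by 0.91 and HDAC4 by 1.20, and HDAC6 fell by 0.71. Of 24 SWI/SNF and CHD remodellers 4 rose and 2 fell (6 each without the Nnm arrays numbered 2), and their median difference was -0.06. CHD2, ARID1B, ARID2 and ARID1A rose, by 0.52 to 1.15, and SMARCA4, the ATPase of the remodelling complex, and CHD7 fell, by 0.83 and 0.60. Of 9 linker and replication-independent histones H2AX, the histone that marks DNA breaks when phosphorylated, fell from 10.37, 9.82 and 10.43 to 8.27, 9.35 and 8.21, and 0 rose. Of 12 DNA methylation and TET genes UHRF1, which guides maintenance of DNA methylation, fell from 11.74, 11.40 and 11.73 to 9.66, 11.18 and 10.06, and MBD4, a DNA glycosylase, rose by 0.47.

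Of 24 nuclear receptor and coregulator genes 6 rose and 2 fell. NR2F1 went from 4.72, 4.89 and 4.27 to 7.31, 6.21 and 6.50 (2.04 ± 0.32, adjusted p = 0.0105), HNF4G from 5.03, 5.03 and 5.26 to 7.07, 5.62 and 7.02, and NR2C2, NCOA1, NCOA2 and the glucocorticoid receptor NR3C1 rose by 1.15, 1.09, 0.80 and 0.98. PPARGC1A, the coactivator that drives mitochondrial biogenesis, went from 8.76, 8.51 and 8.38 to 6.61, 8.06 and 6.20 (-1.59 ± 0.43), with replicate 2 close to its control, and THRB fell by 0.79 (-0.08 in replicate 2). Of 13 KLF and SP factors SP4 rose from 7.84, 7.57 and 7.73 to 10.24, 8.53 and 10.24, KLF3 by 0.84, and 0 fell. The clock repressor NR1D2 rose by 1.29, the 1 of 17 circadian clock genes called. Of 29 Mediator genes, the head and tail subunits MED22 and MED16 fell, by 2.21 and 2.02, and MED13L, MED21, CDK8 and MED23 rose, by 0.43 to 1.30.

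Cell cycle and death genes changed as single members. Cyclin CCND2 fell from 10.82, 10.38 and 11.29 to 8.16, 9.03 and 8.92 (-2.13 ± 0.29, adjusted p = 0.00858), E2F5 by 1.00 and CDK4 by 0.78, and CCNG2, which is tied to growth arrest, rose from 11.71, 11.79 and 11.52 to 13.43, 12.50 and 13.30, CDK7 by 1.07 and the inhibitor CDKN1B by 0.59, 3 each way of 36. These 3 rises and 3 falls are shares of 8.33% each, close to those of all genes. Of 44 mitosis genes ESPL1, the separase, fell by 1.18 and the checkpoint kinase BUB1B by 0.59, and 0 rose. Of 11 mismatch and direct repair genes 0 were called by limma, 2 were lower at an unadjusted p under 0.05, and the lowest adjusted p was that of MGMT (9.77, 9.53 and 9.42 and 8.57, 9.42 and 8.55, adjusted p = 0.0624). Of 25 BCL2 family and caspase genes CASP9, the initiator caspase, rose by 1.24 (0.09 in replicate 2) and BIRC2 by 0.55, and BOK, BAX and cytochrome c (CYCS) fell, by 1.27, 0.67 and 0.76 (6 fell with the block).

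Of 7 monocarboxylate transporters SLC16A14 and SLC16A9 were the 2 called. Both passed the filter only through Nnm arrays, so their share of the 7 is not a result about the family. The sugar transport group held 4 rises and 3 falls among 18 genes, with medians of 0.84, 0.13 and 0.89. ARRDC3 was the most even of them, from 8.84, 9.03 and 8.60 to 11.13, 10.65 and 10.80 (2.04 ± 0.18, adjusted p = 0.00239), and it stayed called in all 6 fits without 1 array. ARRDC4 went from 3.41, 3.62 and 3.49 to 7.60, 4.96 and 7.76, at least 6.84-fold (adjusted p = 0.0219). ARRDC1 fell from 8.37, 7.62 and 7.95 to 5.94, 7.47 and 5.95, and ARRDC2, not called, read 5.65, 5.62 and 6.00 and 7.81, 4.84 and 7.54, so that it was lower than its control in replicate 2 and higher in the others. SLC2A13, a myo-inositol carrier, rose by 1.36, and SLC2A6 and the hexokinase HK1 fell, by 1.23 and 0.76. Of 23 amino acid transporters SLC7A11, which brings in cystine, rose from 6.79, 7.20 and 7.06 to 11.17, 7.90 and 11.51, SLC7A2, a transporter of arginine, from 5.59, 5.55 and 5.93 to 6.60, 7.19 and 6.85 and SLC38A2 by 0.72, and 0 fell (6 rose with the block). SLC7A2 differed most in replicate 2 and SLC7A11 least. Over the whole SLC family, 22 of 203 rose (10.8%) and 17 fell (8.37%), shares near those of all genes. Of 27 sodium, potassium and water transport genes 2 rose and 1 fell. The potassium channel KCNK1 rose from 8.92, 9.03 and 8.72 to 11.04, 9.80 and 10.86, the cotransporter SLC12A2 by 0.80, and the bicarbonate transporter SLC4A7 fell by 0.69. Of 21 drug and organic ion transporters ABCC5 rose by 0.76 and ABCB10 fell by 0.80.

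Conjugating enzymes held no call: of 21 glutathione transferase and conjugation genes 0 were called by limma, 1 was higher and 3 were lower at an unadjusted p under 0.05, with the block 3 rose and 0 fell, and without the Nnm arrays numbered 2 it was 2 and 8. TPMT, a thiopurine methylating enzyme, had the lowest adjusted p of them (0.0727). Among 23 aldo-keto reductase, dehydrogenase and related genes, ALDH3A2, which oxidizes fatty aldehydes, rose from 9.77, 9.74 and 9.44 to 11.23, 11.06 and 11.01 (1.45 ± 0.20, adjusted p = 0.00858) and ALDH5A1 by 1.29, beside DHRS2. DHRS11 fell from 7.73, 7.07 and 7.41 to 3.95, 6.00 and 4.38, ALDH1B1 from 8.17, 8.05 and 8.55 to 5.69, 7.13 and 5.66 and ALDH16A1 by 1.38. Of 28 peroxiredoxin, selenoprotein and superoxide genes the mitochondrial reductase TXNRD2 and SELENOW fell, by 1.12 (-0.02 in replicate 2) and 0.67, and 0 rose. Of 20 genes of iron-sulfur cluster and heme synthesis ALAD, an early enzyme of heme synthesis, rose by 0.59 and 0 fell (2 and 4 with the block).

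Lipid genes were called in both directions. Of 19 sphingolipid genes 2 rose (10.5%) and 1 fell (5.26%), and of 32 glycerolipid genes 3 rose and 3 fell (9.38% each). Of 19 peroxisomal genes 2 rose and 2 fell (10.5% each). These shares lie near the 8.31% and 8.21% of all genes. SPHK1, which makes sphingosine 1-phosphate, rose from 6.62, 5.71 and 5.83 to 8.19, 8.12 and 8.13 (2.09 ± 0.39, adjusted p = 0.0155), with its 3 Nnm arrays nearly level, CERS6 rose by 0.57 (0.06 in replicate 2), and UGCG, which makes glucosylceramide, fell by 1.22. GPAT3, of triglyceride synthesis, rose from 6.65, 6.59 and 6.93 to 10.04, 8.01 and 10.18, CDS1 by 1.53 and LPIN1 by 0.83, while HILPDA, an inhibitor of lipolysis, fell from 8.28, 8.36 and 8.33 to 6.21, 7.72 and 5.25, PCYT2 by 1.67 and AGPAT2 by 0.94 (-0.07 in replicate 2). The peroxisomal genes PHYH and GNPAT rose and PEX10 and PEX19 fell (-0.17 and -0.20 in replicate 2). Of 31 hypoxia and HIF target genes 7 rose (22.6%) and PDK1 fell, by 0.92, with medians of 0.73, 0.09 and 0.52. HILPDA, hypoxia-inducible by its name, is not in this list and fell, as given above. ANKRD37 went from 6.00, 6.06 and 6.37 to 8.47, 7.22 and 7.84 (1.70 ± 0.40), MXI1 rose by 1.05, KDM3A by 1.22, PFKFB4 by 0.79, INSIG2 by 0.67 and EGLN1 by 0.64. WSB1 is uncertain, since its lead probe set rose by 1.11 and another of its 4 fell by 3.36. Without Nnm replicate 1, Nnm replicate 3, control replicate 1 or control replicate 3 no gene of this list was called.

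More zinc finger genes rose than fell. Of 338 tested protein-coding ZNF genes 64 rose (18.9%) and 7 fell (2.07%), against 8.31% and 8.21% of all genes, and their median difference was 0.31, with 0.38, 0.18 and 0.31 in replicates 1, 2 and 3. With the block 109 rose and 18 fell. Leaving out single arrays left 4 to 119 rises and 1 to 32 falls, with 4 rises without Nnm replicate 1 or control replicate 3, 8 without Nnm replicate 3, 13 without control replicate 1, 37 without control replicate 2 and 119 without Nnm replicate 2. ZNF615 went from 4.91, 4.90 and 5.02 to 6.78, 6.35 and 6.73 (1.68 ± 0.16, adjusted p = 0.00239) and stayed called in all 6 fits without 1 array. ZNF564 went from 5.29, 5.58 and 5.46 to 7.13, 6.77 and 7.05 (1.54 ± 0.22, adjusted p = 0.00884), and ZNF44 from 6.62, 6.97 and 6.19 to 8.67, 7.57 and 8.48. Of the falls, ZNF114 went from 8.43, 8.21 and 8.16 to 6.86, 7.16 and 6.65 and ZNF629 from 7.55, 7.29 and 7.46 to 5.58, 7.14 and 5.37. These 5 were named for their sizes after the values were seen. ZNF genes resemble each other in sequence, so the value of a single member is uncertain. As a set they were dim, with a median control level of 6.71 against 8.50 for all genes. Of all genes in the dimmest of 5 equal groups by control level, 9.12% rose and 2.97% fell. In the next group, with levels of 6.38 to 7.91, the shares were 10.2% and 8.21%. ZNF genes were not compared with other genes of like level.

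Of the ZNF genes, 160 lie on chromosome 19 in GRCh38.p14, where 43 rose (26.9%) and 5 fell. Of the 178 elsewhere 21 rose (11.8%). Of the other 614 tested genes of chromosome 19, 1.63% rose and 12.5% fell. Among smaller families, 3 of 15 KDM genes rose and 0 fell, 4 of 38 TRIM genes rose and 2 fell, 2 of 25 kinesins rose and 0 fell, and of 5 AKR genes 0 were called by limma, with 3 higher at an unadjusted p under 0.05 and 3 with the block. TRIM16 rose from 8.15, 7.96 and 8.49 to 10.84, 8.97 and 10.89, and TRIM14 fell from 8.66, 8.12 and 8.53 to 6.41, 8.14 and 6.19, both picked for their size.

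**Figure D4:**
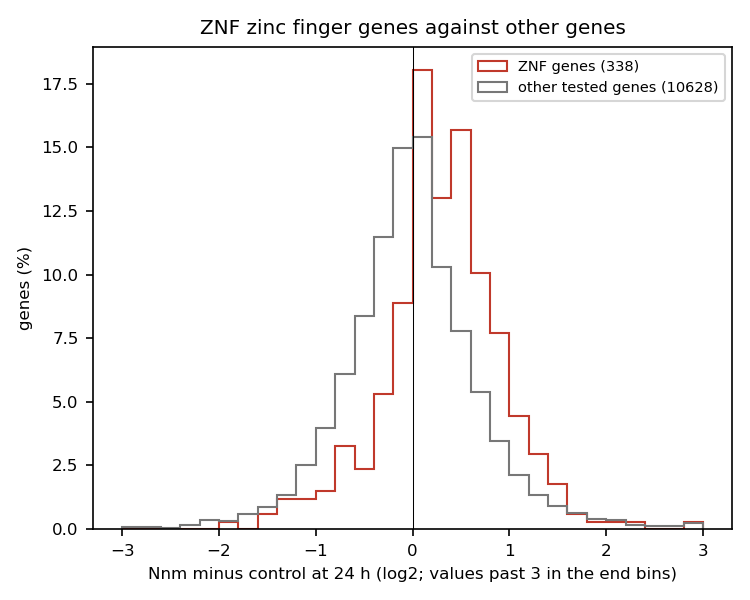
Share of genes (%) by Nnm minus control difference at 24 h (log2, bins of 0.2) for 338 ZNF genes (red) and 10628 other tested genes (grey). The red outline lies to the right of the grey one around 0, with a median of 0.31, without a separate group of large changes.

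The span of a gene in the genome went with its direction. Spans were taken from RefSeq on GRCh38.p14 for 10959 genes, 99.9% of those tested. The median span was 55523 bp for genes that rose, 18887 bp for genes that fell and 30751 bp for all. Over 5 equal groups by span, from shortest to longest, the share of genes that rose was 3.15%, 6.52%, 7.76%, 10.7% and 13.4%, and the share that fell was 13.1%, 9.90%, 7.49%, 5.79% and 4.74%. The expression level moved with direction too, with a median control level of 8.06 for genes that rose, 9.06 for those that fell and 8.50 for all. Within each of 5 equal groups by control level, the longer genes still held the larger share of rises, 11.8% against 6.48% in the dimmest group and 5.84% against 2.74% in the brightest. The ZNF genes are not long, with a median span of 23120 bp, and over the 5 groups by span 7.32%, 19.2%, 22.0%, 21.7% and 18.2% of them rose, against 3.07%, 5.79%, 7.01%, 10.5% and 13.4% of other genes, with 41, 120, 109, 46 and 22 ZNF genes in these groups. The genes of a group are not independent samples, and these shares carry no test.

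**Figure D5:**
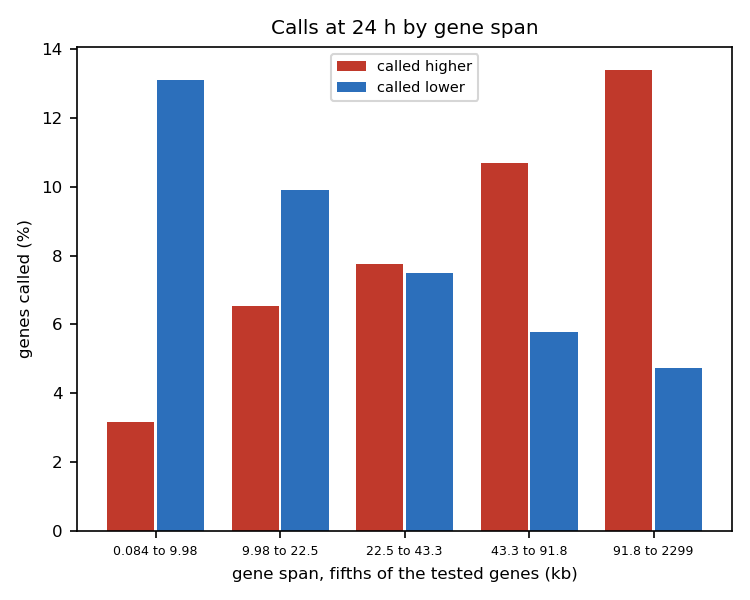
Share of tested genes called higher (red) and lower (blue) with Nnm at 24 h, in 5 equal groups by gene span in kb on GRCh38.p14. The red bars increase from 3.15% to 13.4% and the blue bars decrease from 13.1% to 4.74%.

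At 48 h, all 12 of the consistent rises and 9 of the 12 consistent falls were called as well, against 1186 of all 10966 tested genes. Both times share 1 fit and 1 estimate of the spread, and the 24 genes were chosen by their calls at 24 h in that fit. The calls at 48 h are therefore not independent of those at 24 h. The difference between the Nnm effects at 48 h and 24 h was called for 0 of these 24 genes and for 0 of 10966 by limma, with 1 of the rises, 2 of the falls and 724 of all genes at an unadjusted p under 0.05. Of the 24, INHBA was the 1 whose fitted effect had the opposite sign at 48 h. Its Nnm effect was -2.37 at 24 h and 0.44 at 48 h (limma test of the difference, unadjusted p = 5.73e-04, adjusted p = 0.780). Its 48 h controls read 5.27, 4.81 and 5.23, below those of 24 h. TXNIP had an effect of 2.77 at 24 h and 6.35 at 48 h (limma test of the difference, unadjusted p = 0.00248, adjusted p = 0.780). Its controls at 48 h read 4.22, 6.80 and 7.24 against 9.46, 9.96 and 9.23 at 24 h, while its Nnm arrays read 12.66, 11.87 and 12.78 against 12.43, 12.05 and 12.48.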

How the data were processed

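The deposited table holds log2 expression values per probe set and array, made by the authors with GCRMA, per the submitters' processing notes. GCRMA corrects background from probe sequence and forces the arrays to similar distributions (medians 2.91 to 2.98 here), so a shift shared by most genes would not show. Of 54675 probe sets, 62 manufacturer's controls were left out, and 22829 with a value above log2 4 on at least 3 of 12 arrays were tested. The platform annotation named 1 gene for 41091 probe sets, several for 1801 and none for 11721, and 41037 matched RefSeq (GRCh38.p14).

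All 12 arrays in 4 groups entered 1 limma 3.58.1 model (R 4.3.3; lmFit, contrasts.fit, eBayes; 8 residual degrees of freedom), with p-values adjusted over all tested probe sets. The fit was run on simulated data with independent arrays and the same shift in all 3 Nnm arrays of 24 h. The real arrays differ from this in the weak Nnm replicate 2, so the simulation does not vouch for the calls. Deviations from the group means correlated between same-numbered arrays (18 correlations from 0.162 to 0.669). For the Nnm and control pairs of 24 h they were 0.162, 0.268 and 0.375. The 18 include pairs of Nnm arrays of both times, which share the weak replicate 2. The median of -0.208 for 36 differently numbered pairs is no separate evidence, since deviations within a group sum to 0. The numbers were taken as pairs from these correlations, and the labels do not state a pairing. Named were the 12 rises and falls with the largest smallest difference over replicates, up to 4 called members of each list by size, and the 6 rises and falls that moved only in replicates 1 and 3. Members of families, and further called members of many lists, were named after their values were seen. The comparison and the lists were chosen with earlier results of these data known. The number of arrays limits the precision. Scanner files were not used here. The alternatives tried were the filter, scaling, moderation, array weights, the probe set per gene, the call rule, the arrays in the fit, the block and leaving out arrays. The counts of 1 of the 76 pathway lists are not reported here.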

Additional observations from a re-analysis of the deposited data

Results flagged for a closer look

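For 2 of the genes named above, all 3 same-numbered differences were negative at 24 h and positive at 48 h. The Nnm effect on UHRF1 was higher at 48 h than at 24 h by 1.57 on the log2 scale, and that on HNRNPR by 0.77. The limma test of this difference called neither (adjusted p = 0.780 for both, unadjusted p = 0.00631 for UHRF1 and 0.0143 for HNRNPR). In replicate 2 the 24 h differences were -0.23 for UHRF1 and -0.04 for HNRNPR.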

How the results depend on the processing

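Against 3366 called probe sets, 1811 called genes and 349 called list members, the replicate block gave 6700, 3451 and 653, leaving out the Nnm arrays numbered 2 at both times 10730, 5477 and 938, array weights 12093, 6123 and 1042 (weight 0.136 for Nnm replicate 2), no filter 848, 486 and 104, and only the 6 arrays of 24 h 112, 55 and 10. The block within 24 h gave 0 probe sets, 0 genes and 0 list members by limma, with 7555 probe sets and 3756 genes at an unadjusted p under 0.05 and a lowest adjusted p of 0.111. A 2-fold threshold (treat) called 0 genes, against 4212 at an unadjusted p under 0.05 without that threshold. Leaving out 1 array of 24 h gave 81 to 8683 probe sets, 36 to 4523 genes and 9 to 780 list members, highest without Nnm replicate 2. The difference between times, 0 of 24 genes, was 3 with array weights, 1 without the Nnm arrays numbered 2, and 0 to 1 without single arrays. The cause was not tested, beyond the changed number of arrays or probe sets tested. Quantile normalization, moderation with trend, a filter above 5 and the median of probe sets kept the counts within 1.5 times. Of the 278 called genes among 317 picked by rule or family, 39 lost the call with that median, 14 with quantile normalization, 1 with trend, 194 with no filter, 257 with the 6 arrays of 24 h, 278 with the block within 24 h and 4 to 262 without single arrays. With that median 3 genes turned, MRPS25 to 0.05, WSB1 to -1.15 and TRIM13 to -0.12. Under the block, each of the 278 stayed called.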
